A study of Mus musculus with 6 samples.

Results

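AMP-activated protein kinase (AMPK) is a heterotrimer of a catalytic alpha, a scaffolding beta and a nucleotide-binding gamma subunit. The genes described here are the 7 that encode its subunits, both main upstream kinases, LKB1 (Stk11) and CaMKK2 (Camkk2), and Fnip1, a folliculin-binding protein. They were chosen by symbol, and all 10 were found among the 45777 genes of the deposited count table. RNA sequencing of brown fat compared mice given ginsenoside Rb2, a steroid-like saponin of ginseng, by intraperitoneal injection over 2 weeks with mice given phosphate-buffered saline (PBS) in the same way; all were male wild-type C57Bl6/J. Each group had 3 mice, and the libraries are named by the numbers of the table's columns, Rb2 1, 3 and 4 and PBS 1, 2 and 4. The sources used here give neither the dose of Rb2 nor the age of the mice.

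AMPK is switched on when AMP or ADP binds the gamma subunit and an upstream kinase phosphorylates the activation loop of the alpha subunit. Active AMPK restrains lipid synthesis and the growth kinase mTORC1, and favours fatty acid oxidation, autophagy and mitochondrial upkeep. In mice, loss of AMPK in adipocytes impairs the heat production of brown fat, while loss of adipocyte folliculin, the partner of Fnip1, raises thermogenic genes. Each subunit is encoded by alternative genes: alpha1 and alpha2, beta1 and beta2, and gamma1 to gamma3, of which gamma3 is typical of skeletal muscle. Messenger RNA does not show the phosphorylation or the activity of the kinase, which were not measured here.

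Total counts were between 83642183 (PBS 1) and 92666780 (PBS 4), and Pearson r of log2 expression between libraries, across genes, ran from 0.946 to 0.990. Expression is given as TMM-normalised CPM, which puts counts of libraries of different depth on a common scale. All 12 brown adipocyte markers had counts in every library, with a summed level of 5751 to 7986 CPM in Rb2 libraries and of 6967 to 8614 CPM in PBS libraries. The sum is mostly Ucp1 and Cidea; among the 12, Zic1, Lhx8 and Ebf2 rose, Elovl3 (-1.74, edgeR adjusted p = 0.0214) and Prdm16 (-1.13, adjusted p = 0.00584) fell, and 7 did not pass. Skeletal muscle transcripts differed far more: the 32 muscle markers summed to 74.5, 673 and 438 CPM in Rb2 1, 3 and 4, and to 3206, 9812 and 102 CPM in PBS 1, 2 and 4. The muscle-rich libraries were thus PBS 1 and PBS 2, while PBS 4 lay within the range of the Rb2 libraries. Genes rich in G and C were lower relative to others in Rb2 than in PBS libraries (Spearman rho of the log2 fold change with GC content -0.333, across tested genes, which are not independent replicates). Markers of some other cells were lower after Rb2: 7 of 12 endothelial, 4 of 9 macrophage and 4 of 5 erythroid genes passed the test. Of all tested genes 5.11% passed as lower. In the other lists 0 of 7 fibroblast, 1 of 7 smooth muscle and pericyte and 0 of 4 tested nerve and Schwann cell genes passed. Median log2 fold changes there were -0.78, -0.67 and -0.52. In bulk tissue, fewer cells of a type and less RNA per cell cannot be told apart, and the part of these cells in the results was not tested.

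Rb2-treated brown fat held more Prkag2 and more Fnip1 transcript than PBS-treated brown fat, and the other 8 genes did not pass the test. Prkag2, the gamma2 subunit, was 2.22-fold higher, and Fnip1 was 1.56-fold higher (quasi-likelihood test of edgeR, threshold an adjusted p of 0.05 over all 16707 genes tested). Of all tested genes 10.4% passed (5.33% higher and 5.11% lower after Rb2), and 2 of 10 is no result about the genes as a group. At an unadjusted p under 0.05 the counts were 4 of 10 and 30% of all tested genes. With library size alone as scaling, 492 genes were higher and 779 lower, and with a spline offset for transcript length and GC content 794 were higher and 495 lower, against 890 and 853 with TMM factors alone. The median log2 fold change of the 10 genes was -0.02, and that of all tested genes was -0.01. All 10 passed the filter on low counts. Prkag3 would not have passed it on its Rb2 libraries alone, so its inclusion already favoured a difference.

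**Figure D1:**
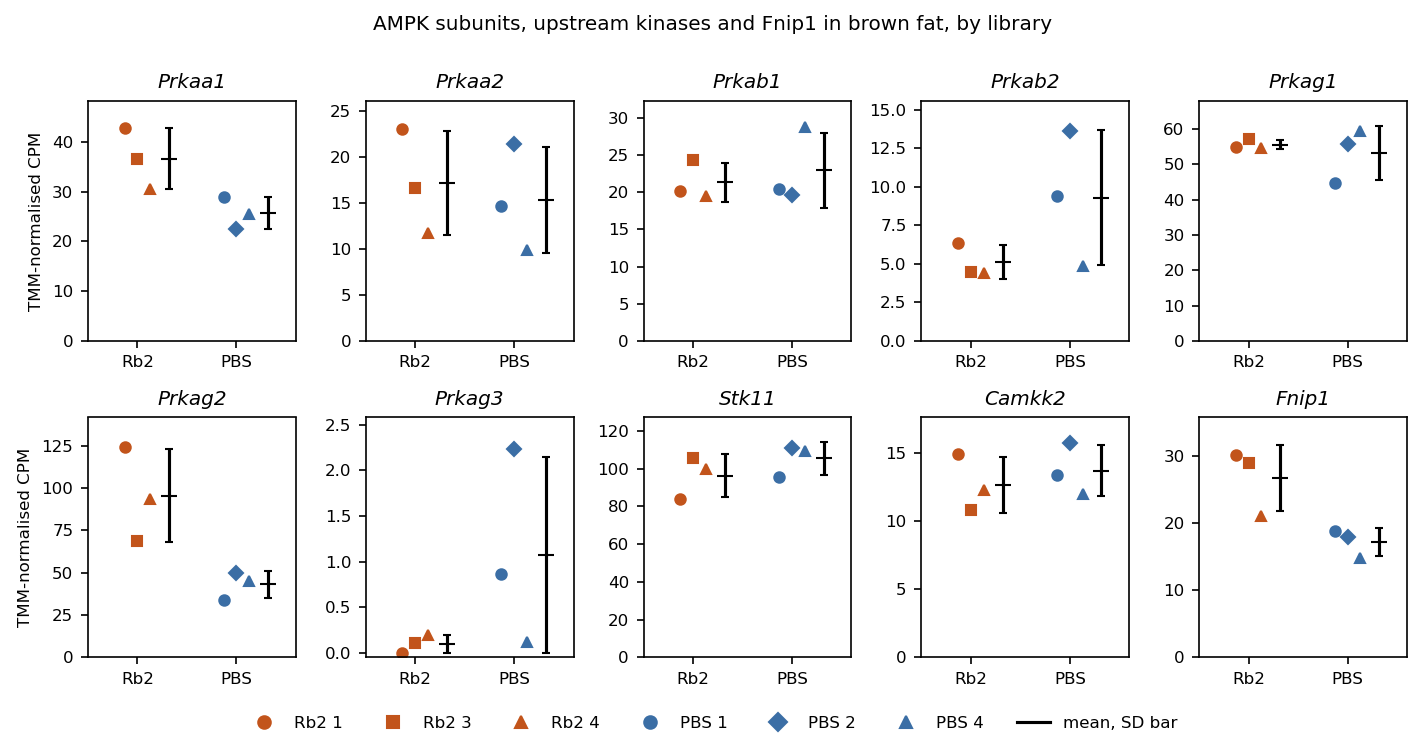
TMM-normalised expression (CPM, y axis, linear and starting at or just under 0) of the 10 genes in each library; symbols are single mice and black bars are mean and SD of 3. The Rb2 libraries lie above all PBS libraries for Prkag2, Fnip1 and Prkaa1, and the groups overlap for the other 7 genes. Of all tested genes 35.8% had no overlap between the groups.

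**Figure D2:**
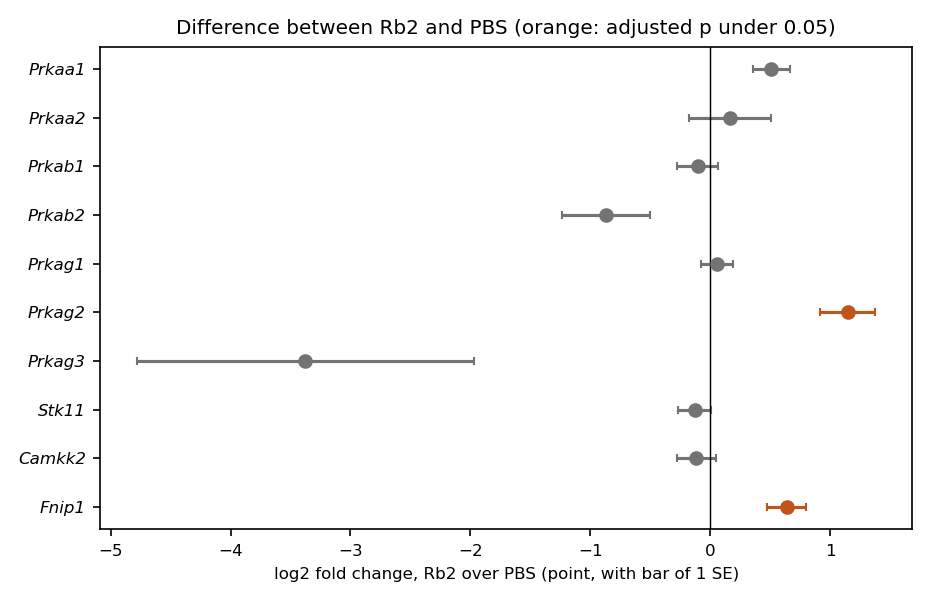
Log2 fold change, Rb2 over PBS, of each gene with a bar of 1 standard error (SE); orange marks an adjusted p under 0.05. Prkag2 (1.15) and Fnip1 (0.64) passed, and the widest bar is that of Prkag3 (SE 1.40).

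The gamma subunits carry the sites that bind AMP, ADP and ATP. Prkag2 (NCBI gene 108099; chromosome 5, 24862735 to 25106282, minus strand, GRCm38.p6) encodes gamma2, whose mutations cause a glycogen-storage cardiomyopathy with pre-excitation in humans. Its level was 124, 68.8 and 93.6 CPM in Rb2 1, 3 and 4, against 34.1, 49.9 and 45.4 CPM in PBS 1, 2 and 4. The lowest Rb2 library was thus above the highest PBS library, and the Rb2 libraries were the more spread out. The means were 95.5 ± 27.7 CPM with Rb2 and 43.1 ± 8.13 CPM with PBS (SD, n = 3 each), a log2 fold change of 1.15 ± 0.23 SE (edgeR, adjusted p = 0.0211). By unadjusted p it ranked 636 among the 16707 genes tested. Of all tested genes 35.8% had no overlap between the groups, 18.2% with Rb2 above and 17.6% with Rb2 below.

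Under all 18 other processing choices the log2 fold change of Prkag2 was between 0.92 and 1.45, while its call depended on single libraries. Since the groups did not overlap, leaving out libraries could hardly turn the direction, so the kept direction is no support. The choice of an adjusted p under 0.1 changed the threshold only and repeats the estimate. Prkag2 passed without Rb2 3 (1.34, edgeR adjusted p = 0.0219), without Rb2 4 (1.16, adjusted p = 0.0453) and without PBS 4 (1.17, adjusted p = 0.0428). It did not pass without Rb2 1 (0.92, edgeR adjusted p = 0.0598), without PBS 1 (1.0, adjusted p = 0.0793) or without PBS 2 (1.26, adjusted p = 0.0515), fits that also have fewer libraries. With both PBS 1 and PBS 2 left out the log2 fold change was 1.08 (edgeR adjusted p = 0.325), and with the muscle markers as a covariate it was 1.01 (edgeR adjusted p = 0.0539). With the GC and length offset it was 1.19 (edgeR adjusted p = 0.0215).

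RefSeq lists 3 start sites for Prkag2, and gene-level counts cannot tell which of them was used more after Rb2. The GENCODE transcripts that begin at these starts are 3331, 2838 and 890 bases long, with 1698, 1329 and 734 coding bases. The 734 bases are not a whole number of codons, so the entry of 890 bases does not hold a complete coding sequence. A transcript of 2205 bases, 978 of them coding, begins a little downstream of the third start. The downstream starts leave out the 5′ part of the coding sequence. The windows from 250 bases before to 50 after each start (RefSeq, GRCm38.p6, minus strand) are shown because the gene-level count pools all of them. They lie at chr5:25100593-25100892 (start 1), chr5:24995704-24996003 (start 2) and chr5:24908460-24908759 (start 3). Capitals mark letters of the motifs searched on both strands: the E-box CACGTG, the cAMP response element TGACGTCA, the GC box GGGCGG, the box named CCAAT, the TATA box as TATAAA, and the D-box either as TTATGTAA or with a central C as TTACGTAA.
Prkag2 start 1: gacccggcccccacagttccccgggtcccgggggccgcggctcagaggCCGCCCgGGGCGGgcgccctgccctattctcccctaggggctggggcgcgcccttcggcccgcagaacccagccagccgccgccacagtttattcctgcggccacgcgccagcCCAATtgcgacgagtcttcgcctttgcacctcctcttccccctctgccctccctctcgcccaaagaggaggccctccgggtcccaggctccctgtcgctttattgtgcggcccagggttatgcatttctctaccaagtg
Prkag2 start 2: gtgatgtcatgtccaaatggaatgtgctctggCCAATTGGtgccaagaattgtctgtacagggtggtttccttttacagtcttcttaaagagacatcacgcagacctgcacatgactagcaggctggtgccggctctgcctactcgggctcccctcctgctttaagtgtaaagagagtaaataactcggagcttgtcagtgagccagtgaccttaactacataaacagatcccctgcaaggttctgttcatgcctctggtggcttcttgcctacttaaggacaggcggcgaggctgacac
Prkag2 start 3: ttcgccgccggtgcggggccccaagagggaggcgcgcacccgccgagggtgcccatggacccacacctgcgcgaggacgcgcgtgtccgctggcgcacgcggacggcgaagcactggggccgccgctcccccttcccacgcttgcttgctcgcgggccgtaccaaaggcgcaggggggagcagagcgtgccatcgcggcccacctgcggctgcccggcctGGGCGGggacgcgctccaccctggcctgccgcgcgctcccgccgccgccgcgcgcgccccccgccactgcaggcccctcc

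The first window held 2 GC boxes and 1 CCAAT and the third 1 GC box, while the second held 2 CCAAT matches on opposite strands that share bases. GC content of the windows was 69.7%, 50.3% and 79.3%, against a median of 52.7% over the 32851 promoters of the table. A GC box was in 35.7% and CCAAT in 37.4% of these promoters. The other motifs, held by 7.15% (E-box), 1.79% (cAMP response element), 13.6% (TATA box), 0.94% and 0.12% (D-box forms) of the promoters, had no match in the 3 windows.

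Prkag1 (gene 19082; chromosome 15), the gamma1 subunit found in most tissues, did not differ beyond the spread. It was at 54.8, 57.0 and 54.7 CPM in Rb2 libraries and at 44.6, 55.7 and 59.4 CPM in PBS libraries (log2 fold change 0.06 ± 0.13 SE, edgeR adjusted p = 0.793). The groups overlapped, with PBS 1 the lowest library. A gene on the opposite strand, B130046B21Rik, overlaps 950 exon bases of Prkag1. Of Prkag2, Prkag2os2 overlaps 795 exon bases and Prkag2os1, listed at 0 in all 6 libraries, 142. The libraries mark strand, but the sources used here do not say whether the counting used it, so reads of these partners cannot be told apart from the sense genes.

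Within the gamma family, gamma2 had a larger share in every Rb2 library than in any PBS library. On a scale of counts per kilobase of the longest transcript, Prkag2 made up 52.9%, 37.4% and 45.9% of gamma transcripts in Rb2 1, 3 and 4, and 27.3%, 30.3% and 27.5% in PBS 1, 2 and 4. Prkag1 made up the rest but for the small share of Prkag3, at 54.5 ± 7.71% with Rb2 and 70.8 ± 2.35% with PBS (SD, n = 3 each). The share of Prkag2 was 17.1 percentage points higher with Rb2. A two-sided exact permutation test over 3 against 3 libraries gave p = 0.1, the smallest p this design allows, so it cannot pass 0.05. This was 1 of 7 such shares tested, and its exact p adjusted over them was 0.35. If Prkag2 is scaled by its transcript of 2205 bases, its share is 55.5 ± 7.74% with Rb2 and 37.4 ± 1.93% with PBS, a difference of 18.1 points.

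**Figure D3:**
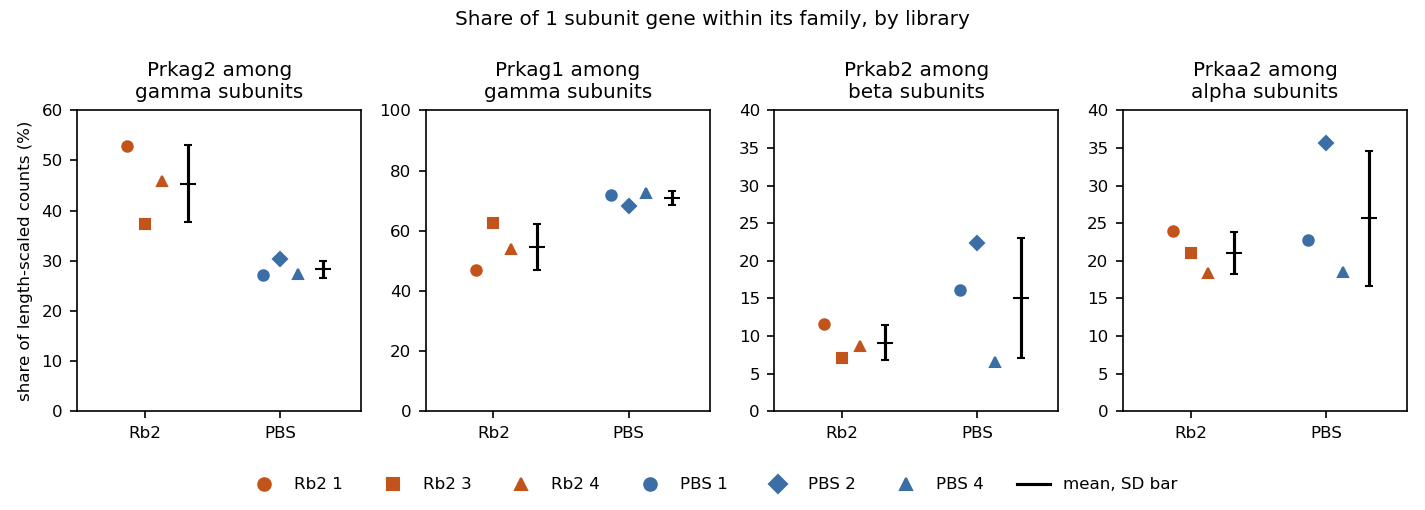
Share (%, y axis) of a subunit gene in the length-scaled counts of its family, by library, with mean and SD of 3. The share of Prkag2 is 37.4% to 52.9% in Rb2 libraries and 27.3% to 30.3% in PBS libraries; those of Prkab2 and Prkaa2 overlap, with PBS 2 the highest.

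Summed over the family, gamma transcripts reached 70.5, 55.2 and 61.3 CPM per kilobase in Rb2 1, 3 and 4, against 37.5, 49.5 and 49.6 in PBS 1, 2 and 4. The alpha family summed to 12.1, 9.92 and 8.03 CPM per kilobase in Rb2 libraries and to 8.07, 7.51 and 6.71 in PBS libraries. The beta family summed to 11.2 ± 1.20 CPM per kilobase with Rb2 and 12.8 ± 1.68 with PBS (SD, n = 3 each). Gamma transcripts were thus the most abundant of the families in every library. To show how far reads can tell gamma1 from gamma2, their most alike stretch of 75 coding bases is printed with capitals where they differ. It lies at chr15:98815233-98815520 for Prkag1 and at chr5:24875211-24878728 for Prkag2 (GRCm38, minus strand, both spanning an intron).
Prkag1: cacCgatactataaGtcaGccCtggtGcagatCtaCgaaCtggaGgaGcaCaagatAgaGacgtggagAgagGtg
Prkag2: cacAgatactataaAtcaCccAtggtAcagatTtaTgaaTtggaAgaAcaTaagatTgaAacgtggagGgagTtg
Even here 15 of 75 bases differ. No stretch of 50 bases of the longest Prkag1 or Prkag2 transcript occurs, in the same orientation, in a GENCODE transcript of another gene. The opposite orientation was not searched, so overlaps with the opposite-strand partners named above are not covered. Of the 10 genes only Prkag3 shared such stretches (1.69% of its 2783).

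Prkag3 (gene 241113; chromosome 1), the muscle gamma3 subunit, was nearly absent from libraries poor in muscle transcripts. Its counts were 0, 9 and 18 in Rb2 1, 3 and 4, against 70, 216 and 12 in PBS 1, 2 and 4. In CPM these were 0, 0.109 and 0.195 with Rb2, and 0.863, 2.23 and 0.123 with PBS. PBS 1 and PBS 2 were high and PBS 4 lay within the Rb2 range, so the groups overlapped. A count of 0 in Rb2 1 allows up to 3 counts, or 0.0334 CPM before TMM scaling, for counting error only. The log2 fold change of -3.37 ± 1.40 SE did not pass (edgeR adjusted p = 0.181). It was -0.27 with PBS 1 and PBS 2 left out. Both had its highest levels, so this choice had to shrink the difference, and the part of muscle was not tested. All 32 muscle markers had a lower mean level after Rb2 and the median log2 fold change was -3.60, but none passed in edgeR (0 at an unadjusted p under 0.05) or limma-voom, while 4 did by DESeq2's Wald test and 2 in edgeR without PBS 4. In Rb2 1, 11 of the 32 were at 0, Ckm, Myh4 and Tnni1 among them, while Myl1 had 4208 counts there. In PBS 4, 4 were at 0.

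Beta subunits tie the trimer together and bind glycogen. Prkab1 (gene 19079; chromosome 5), encoding beta1, was at 20.2, 24.4 and 19.5 CPM with Rb2 and at 20.4, 19.7 and 28.8 CPM with PBS (log2 fold change -0.10 ± 0.17 SE, edgeR adjusted p = 0.715). PBS 4 was the highest and the other PBS libraries lay among the Rb2 ones. Prkab2 (gene 108097; chromosome 3), encoding the muscle-rich beta2, was at 6.36, 4.50 and 4.43 CPM with Rb2 and at 9.40, 13.6 and 4.88 CPM with PBS. Here PBS 1 and PBS 2, the libraries with most muscle transcripts, were above all others. The log2 fold change was -0.87 ± 0.36 SE (edgeR adjusted p = 0.163). It passed with PBS 4 left out (-1.20, edgeR adjusted p = 0.0230) and by DESeq2's Wald test (-0.87, adjusted p = 0.0372). With PBS 1 and PBS 2 left out it was 0.07. These were its highest libraries, so leaving them out had to shrink the difference, and the part of muscle was not tested.

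**Figure D4:**
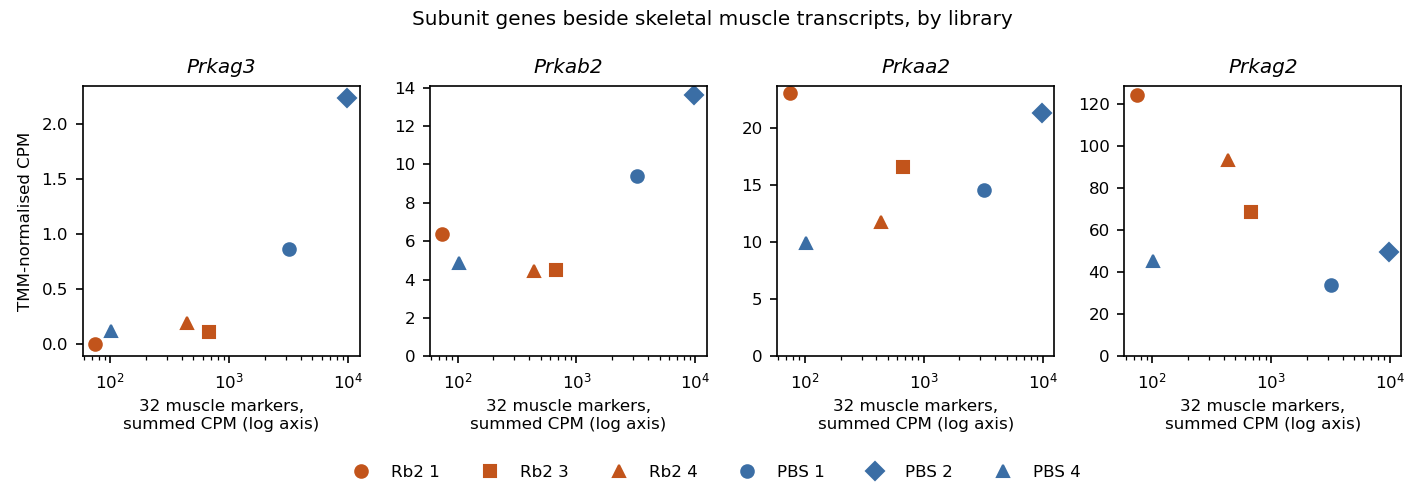
Expression of 4 subunit genes (CPM, linear y axis) against the summed CPM of 32 skeletal muscle markers (logarithmic x axis), 1 point per library. Prkag3 and Prkab2 are highest in PBS 1 and PBS 2, the libraries with 3206 and 9812 CPM of muscle markers; Prkag2 is not.

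The alpha subunits hold the kinase domain. Prkaa1 (gene 105787; chromosome 15), encoding alpha1, was at 42.8, 36.5 and 30.5 CPM in Rb2 1, 3 and 4 and at 29.0, 22.5 and 25.5 CPM in PBS 1, 2 and 4. Every Rb2 library was above every PBS library, with Rb2 4 and PBS 1 the nearest pair. The log2 fold change of 0.51 ± 0.16 SE missed the threshold (edgeR adjusted p = 0.0652). It passed without Rb2 4 (0.62, edgeR adjusted p = 0.0303) and by DESeq2's Wald test (adjusted p = 0.0255). With the GC and length offset it was 0.30 (edgeR adjusted p = 0.186). Its longest transcript has a GC content of 40.2%, against a median of 49.8% over tested genes.

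Prkaa2 (gene 108079; chromosome 4), encoding alpha2, was at 23.0, 16.6 and 11.7 CPM with Rb2 and at 14.6, 21.4 and 9.89 CPM with PBS. The groups overlapped over nearly their whole range (log2 fold change 0.16 ± 0.34 SE, edgeR adjusted p = 0.784), and the sign turned without Rb2 1 (-0.11), without PBS 4 (-0.09) and with the GC and length offset (-0.02). Per kilobase, Prkaa1 made up 78.9 ± 2.78% of alpha transcripts with Rb2 and 74.4 ± 8.94% with PBS (SD, n = 3 each; exact two-sided permutation p = 0.6). Without PBS 2, where Prkaa2 took 35.7%, the difference of 4.54 points became -0.48 points. The most alike 75 coding bases of the 2 genes are printed to show how alike they are there, with capitals at the 5 bases that differ. The stretch lies near the start of both coding sequences, at chr15:5143908-5143982 (plus strand) and chr4:105109718-105109792 (minus strand; GRCm38).
Prkaa1: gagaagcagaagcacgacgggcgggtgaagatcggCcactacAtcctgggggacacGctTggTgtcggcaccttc
Prkaa2: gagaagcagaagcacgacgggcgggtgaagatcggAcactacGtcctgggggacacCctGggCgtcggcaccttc

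The kinases that switch AMPK on did not pass the test. Stk11 (gene 20869; chromosome 10), encoding LKB1, the constitutively active kinase of the AMPK activation loop, was at 83.9, 106 and 99.7 CPM with Rb2 and at 95.6, 111 and 110 CPM with PBS. Its log2 fold change was -0.13 ± 0.14 SE (edgeR adjusted p = 0.558), and 0.20 with the GC and length offset. Its exons overlap those of Cbarp on the other strand by 232 bases, a gene with 61 to 190 counts a library. Camkk2 (gene 207565; chromosome 5), the calcium-driven AMPK kinase, was at 14.9, 10.8 and 12.3 CPM with Rb2 and at 13.4, 15.8 and 12.0 CPM with PBS (log2 fold change -0.12 ± 0.16 SE, edgeR adjusted p = 0.662). Its sign turned with the offset (0.02) and with PBS 1 and PBS 2 left out (0.08). Both genes overlapped between the groups.

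Fnip1 (gene 216742; chromosome 11, 54438107 to 54518241, plus strand, GRCm38.p6) binds folliculin and AMPK, and the folliculin complex controls the lysosomal recruitment of the transcription factors TFEB and TFE3. It was at 30.1, 29.0 and 21.1 CPM in Rb2 1, 3 and 4, against 18.8, 18.0 and 14.8 CPM in PBS 1, 2 and 4. The groups did not overlap, and Rb2 4 was the nearest to PBS. The means were 26.8 ± 4.91 CPM with Rb2 and 17.2 ± 2.11 CPM with PBS (SD, n = 3 each), a log2 fold change of 0.64 ± 0.17 SE (edgeR adjusted p = 0.0406). The call was narrow. With 1 library left out it passed only without Rb2 4 (0.78, edgeR adjusted p = 0.0163). It was 0.55 (edgeR adjusted p = 0.126) without Rb2 1, 0.58 (adjusted p = 0.129) without Rb2 3, 0.71 (adjusted p = 0.0950) without PBS 1, 0.67 (adjusted p = 0.122) without PBS 2 and 0.52 (adjusted p = 0.112) without PBS 4.

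Scaling by library size alone (0.55, edgeR adjusted p = 0.0558) and the muscle covariate (0.67, adjusted p = 0.0737) also ended the call of Fnip1, as did leaving out PBS 1 and PBS 2 (0.85, adjusted p = 0.322). With the GC and length offset it was 0.40 (edgeR adjusted p = 0.111). At 38.9% its longest transcript has the lowest GC content of the 10 genes. Fnip1 is the only one of the 10 genes whose promoter window held an E-box, a motif found in 7.15% of the promoters. The window (RefSeq, GRCm38.p6, chr11:54437929-54438228, plus strand) is shown with the E-box, 3 GC boxes and 2 CCAAT in capitals.
Fnip1: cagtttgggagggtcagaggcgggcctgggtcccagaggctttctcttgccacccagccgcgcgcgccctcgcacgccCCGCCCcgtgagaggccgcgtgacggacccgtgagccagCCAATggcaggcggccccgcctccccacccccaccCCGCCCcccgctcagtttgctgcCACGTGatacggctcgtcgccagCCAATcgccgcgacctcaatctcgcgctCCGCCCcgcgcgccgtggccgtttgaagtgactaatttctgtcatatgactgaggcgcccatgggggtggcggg
The E-box lies 75 bases before the start of transcription. A match is a description of these letters and shows no binding.

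**Figure D5:**
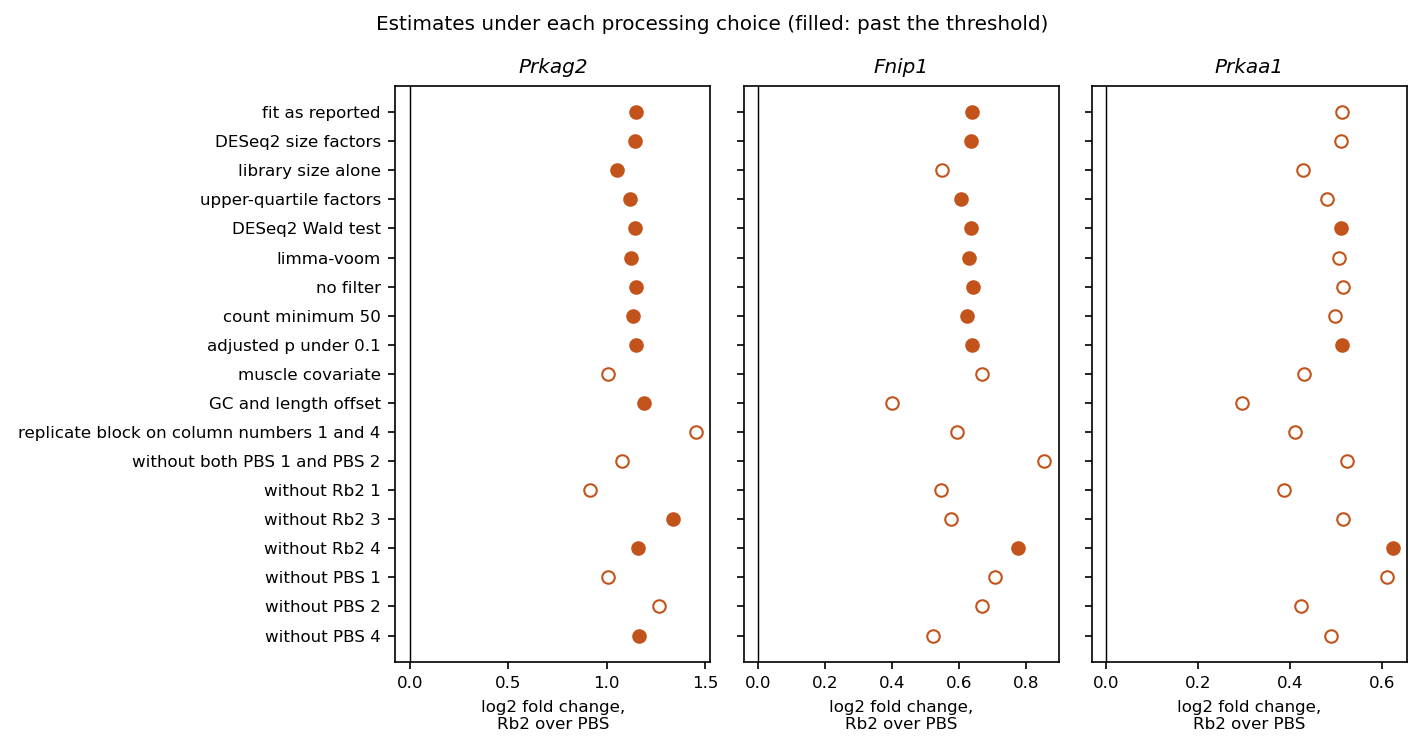
Log2 fold change of Prkag2, Fnip1 and Prkaa1 (Rb2 over PBS, x axis) as reported and under 18 other processing choices; filled points are past the threshold. All points lie above 0, from 0.92 to 1.45 for Prkag2, 0.40 to 0.85 for Fnip1 and 0.30 to 0.62 for Prkaa1. The groups did not overlap for these genes, so leaving out libraries could hardly turn a sign.

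Per kilobase of longest transcript, which allows levels of different genes to be compared, the order in Rb2 libraries was Prkag1 (33.6 CPM per kilobase), Prkag2 (28.7), Stk11 (26.3), Prkab1 (10.2), Prkaa1 (7.86), Fnip1 (4.28), Camkk2 (2.61), Prkaa2 (2.15), Prkab2 (1.02) and Prkag3 (0.0357). In PBS libraries Prkag1 (32.2 CPM per kilobase) and Stk11 (28.8) led, followed by Prkag2 (12.9), Prkab1 (11.0), Prkaa1 (5.51), Camkk2 (2.82), Fnip1 (2.75), Prkaa2 (1.92), Prkab2 (1.86) and Prkag3 (0.379). With Rb2, Prkag2 did not differ from Prkag1 or Stk11 beyond its own SD (8.32). Prkag1 (SD 0.782) was above Stk11 (SD 3.05) by more than their spread, while Camkk2 and Prkaa2 did not differ beyond theirs. These SDs are between libraries and leave out the error of the assumed transcript lengths, on which the order of all these genes rests. With PBS the neighbours Prkag1 and Stk11 (SD 4.65 and 2.35), Prkag2 and Prkab1 (SD 2.44 and 2.43), Camkk2 and Fnip1, and Prkaa2 and Prkab2 did not differ beyond their spread. On this scale Prkag2 thus stood beside Prkag1 in Rb2 libraries and beside Prkab1 in PBS libraries. A shorter transcript would raise its level in both groups, and gene-level counts cannot tell which was used. Scaled by its transcript of 2205 bases, Prkag2 made up 55.5 ± 7.74% of gamma transcripts with Rb2 and 37.4 ± 1.93% with PBS. Prkag1 then made up 44.4 ± 7.71% and 61.9 ± 2.51% (SD, n = 3 each).

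Genes with the most similar course over the 6 libraries were picked by Pearson r of log2 expression among tested genes with at least 1 CPM on average. For Prkag2 they were Acvr2b (0.996), Zfp866 (0.995) and Med1 (0.994), none of which passed the test (edgeR adjusted p between 0.0556 and 0.0778). For Fnip1 they were Cul2 (0.997), Arl8b (0.995) and Scrn3 (0.994), of which Cul2 and Scrn3 were called higher. Such r over 6 libraries is a description, and the points share the libraries with their depth and GC trend.

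Around these genes, 71 others tested in 5 lists gave 9 calls, 3 higher and 6 lower. These calls are 12.7%, close to the 10.4% of all genes. The lists hold AMPK partners and substrates, other kinases activated by LKB1, sestrins and genes of the TFEB and TFE3 branch. Among LKB1 partners, other AMPK kinases, folliculin proteins and phosphatases 1 of 16 rose, 1 fell and 14 did not pass (median log2 fold change 0.00, against -0.01 over all tested genes). Stradb, a pseudokinase that binds and activates LKB1, was at 62.9, 62.0 and 52.8 CPM with Rb2 and at 36.6, 36.5 and 43.2 CPM with PBS (0.61 ± 0.13 SE, edgeR adjusted p = 0.0225). The groups did not overlap. Ppm1f, a phosphatase, was lower in every Rb2 library, with 33.0 ± 2.38 CPM against 45.9 ± 3.45 CPM in PBS (-0.47, edgeR adjusted p = 0.0367). Ppp1r3c, a glycogen-targeting phosphatase subunit, did not pass (-0.53, edgeR adjusted p = 0.0643). Neither did Flcn, folliculin itself (0.55, edgeR adjusted p = 0.0917), or Fnip2, the relative of Fnip1 (-0.12, adjusted p = 0.557), both named outside the naming rule, with their values seen, for their tie to Fnip1.

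Of the 12 AMPK-related kinases that LKB1 also activates, 2 fell and 10 did not pass (median -0.04). Nuak2 was at 0.79 ± 0.06 CPM with Rb2 and 1.91 ± 0.32 CPM with PBS (-1.27 ± 0.25 SE, edgeR adjusted p = 0.0178). Snrk, an SNF1-related kinase, was far more abundant, at 147, 108 and 97.4 CPM with Rb2 and 184, 235 and 171 CPM with PBS (-0.74 ± 0.19 SE, edgeR adjusted p = 0.0394). Brsk2, a kinase of neuronal polarity, did not pass (-1.58, edgeR adjusted p = 0.0691). Its counts were low, at 10, 15 and 20 in Rb2 1, 3 and 4 and at 47, 24 and 71 in PBS 1, 2 and 4.

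Of 10 tested sestrins and genes of the TFEB and TFE3 branch, 2 rose and 8 did not pass (median -0.09). Sesn1, a stress-responsive inhibitor of mTORC1, was at 13.4, 14.1 and 11.7 CPM with Rb2 and at 8.98, 9.66 and 7.69 CPM with PBS (0.58 ± 0.14 SE, edgeR adjusted p = 0.0345). Mitf, a transcription factor related to TFEB and TFE3, was at 5.09 ± 0.62 CPM with Rb2 and 2.88 ± 0.74 CPM with PBS (0.82 ± 0.22 SE, edgeR adjusted p = 0.0469). Rragc, a GTPase through which folliculin acts at the lysosome, did not pass (0.33, edgeR adjusted p = 0.138).

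Of 15 AMPK substrates in lipid and glucose metabolism 2 fell and 13 did not pass (median 0.09). Tbc1d1, a Rab GTPase-activating protein of glucose uptake, was at 7.22, 7.85 and 8.29 CPM with Rb2 and at 12.5, 12.5 and 12.1 CPM with PBS (-0.67 ± 0.13 SE, edgeR adjusted p = 0.0151). The libraries of each group lay close together and far from the other group. Srebf2, a regulator of sterol synthesis, was at 19.0 ± 2.34 CPM with Rb2 and 28.0 ± 3.61 CPM with PBS (-0.56 ± 0.14 SE, edgeR adjusted p = 0.0405). Tbc1d4, the relative of Tbc1d1, did not pass (0.43, edgeR adjusted p = 0.0992).

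Of 18 substrates in growth, autophagy, mitochondria and transcription 1 fell and 17 did not pass (median -0.01). It was Nos3, endothelial nitric oxide synthase, at 18.3, 22.6 and 29.2 CPM with Rb2 and at 42.8, 48.8 and 43.0 CPM with PBS (-0.94 ± 0.17 SE, edgeR adjusted p = 0.0133). All 12 endothelial markers had a negative log2 fold change. Of these, 7 passed as lower and 5 did not pass, while 5.11% of all tested genes passed as lower. The sum of the 12 markers was 876 to 1300 CPM with Rb2 and 1594 to 1796 CPM with PBS. Their part in the fall of Nos3 was not tested. Ulk1 (0.42, edgeR adjusted p = 0.148), a kinase that starts autophagy, and Tsc2 (0.34, adjusted p = 0.159), which restrains mTORC1, did not pass. Of the 9 calls in these lists none remained without Rb2 3, without PBS 1 or without PBS 2, 3 remained without Rb2 1, 5 without PBS 4 and 6 without Rb2 4. The directions of all 9 held in these fits, which could hardly be otherwise, since none of the 9 overlapped between the groups. With the GC and length offset 4 of the 9 remained, with the muscle covariate 5, and with PBS 1 and PBS 2 both left out or with the block on column numbers none. Under the offset Srebf2 was at -0.28 (edgeR adjusted p = 0.258).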

How the data were processed

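Messenger RNA libraries, stranded and made with an mRNA kit per the labels' protocols, were made from brown fat of 3 Rb2 and 3 PBS mice. The authors deposited raw read counts per gene, whole numbers that were not normalized. The submitters' processing notes name the tools HISAT2, Bowtie2, StringTie and Trimmomatic and the build mm10; the sources used here do not give their roles and versions, the counting program or its strand setting. Columns carry the group and a number that cannot be tied to the titles, so no pairing was read from the numbers. The columns' Con prefix was read as the PBS group. Separate mice are stated per condition.

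Counts were tested with edgeR 4.0.16 (R 4.3.3; TMM, quasi-likelihood with robust dispersions, filter with a count minimum of 10 and a total of at least 15), and p-values were adjusted by Benjamini-Hochberg over the 16707 genes left, threshold 0.05. SEs are absolute log2 fold changes over the square root of edgeR's F. Alternatives used DESeq2 1.42.0, limma 3.58.1, other scalings and filters, a muscle covariate, a GC and length offset (splines with 5 degrees of freedom, values for 94.4% of tested genes) and left-out libraries. Depth was 83642183 to 92666780 counts, and a count of 0 allows 3.

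Positions and promoters are RefSeq's for GRCm38.p6 (10 of 10 genes matched, 12 start sites), and lengths are GENCODE's longest transcripts. All 10 genes are named. Of each list of genes around AMPK, the 3 members with the smallest p and all called ones are named. Cell type markers fall outside this rule; those named were chosen with their values seen. Genes, lists and some alternatives were chosen with earlier results of these data known. Isoform shares and their alternatives are computed per library.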

Additional observations from a re-analysis of the deposited data

How the results depend on the processing

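Over 18 alternatives to the edgeR fit, the directions of Prkag2, Fnip1, Prkaa1 and Prkag3 (17 alternatives, since a count minimum of 50 removed it) held. For Prkag2, Fnip1 and Prkaa1, whose groups did not overlap, leaving out libraries could hardly turn the direction. The 2 calls among the 10 genes stayed at 2 with DESeq2 size factors, upper-quartile factors, limma-voom, no filter and a count minimum of 50. They became 1 with library size alone and with the GC and length offset, 4 with the DESeq2 Wald test (with Prkaa1 higher and Prkab2 lower), and 3 at an adjusted p under 0.1. They became 0 in edgeR with the muscle covariate (4 had an unadjusted p under 0.05), with PBS 1 and PBS 2 both left out (2 had) and with the block (2 had). With 1 library left out they ran from 0 (edgeR, without Rb2 1, PBS 1 or PBS 2, with 4, 3 and 3 at an unadjusted p under 0.05) over 1 (without Rb2 3) to 3 (without Rb2 4). All genes called were 3295 by the Wald test, 3392 at an adjusted p under 0.1, 873 with the muscle covariate, and 303 to 2269 with 1 library left out (548 without Rb2 1, 601 without Rb2 3, 334 without PBS 1, 303 without PBS 2), against 1743. None were called with PBS 1 and PBS 2 left out (2063 at an unadjusted p under 0.05), a fit that assumes that the lone PBS library varies like the others. The replicate block on the column numbers 1 and 4, which both groups carry, used 4 libraries and called 52 genes. Deviations from the group means had a correlation of -0.14 for number 1 and -0.15 for number 4. Libraries of unlike number had correlations from -0.41 (Rb2 1 with PBS 2) to 0.42 (Rb2 1 with PBS 4). With so few libraries a group, such correlations cannot show whether like numbers form pairs. In the edgeR fit with the block Prkag2 was at 1.45 (adjusted p = 0.0978) and Fnip1 at 0.59 (adjusted p = 0.256).

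Signs of uncalled genes turned as follows on the log2 scale. Prkag1 was at -0.030 with library size alone, at -0.10 with PBS 1 and PBS 2 left out, and between -0.051 and 0.13 with 1 library left out. With the offset Prkaa2 was at -0.023, Prkab1 at 0.12, Stk11 at 0.20 and Camkk2 at 0.022. Camkk2 was at 0.094 with the block and at 0.079 with PBS 1 and PBS 2 left out, and Prkab2 was then at 0.065. With 1 library left out Prkaa2 ran from -0.11 to 0.48 and Prkab1 from -0.21 to 0.074. The causes were not tested. The shares within subunit families, with alternatives chosen after seeing the data, kept their direction but for the alpha family, where the Prkaa1 share differed by -0.48 to 8.10 points with 1 library left out and that of Prkaa2 by -8.10 to 0.48. The share of Prkag2 differed by 13.3 to 21.0 points in these, and could not turn since its groups did not overlap. At this depth precision is limited for Prkag3 and not for the other 9 genes, whose counts were at least 371 in every library.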
